A study of Mus musculus with 12 samples.

Results

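Schwann cells are the glia of peripheral nerves, and in the pancreas they accompany the nerve fibres that reach the islets and wrap the islet surface. Their transcripts were followed here through 6 marker genes (Sox10, Foxd3, Ngfr, Erbb3, S100b and Gfap), chosen by name from the 37991 genes of the count table. Wt and Tg7 islets were sequenced at 2 weeks (2w) and 12 weeks (12w) of age, with 3 libraries for each of the 4 groups. The paper describes Tg7 mice as normoglycaemic at 2w and as hyperglycaemic, with diabetes, at 12w. The transgene and diabetes therefore cannot be told apart in the 12w libraries. All mice were males on the C57BL/6 background, and the Tg7 mice carry a transgene that overexpresses the microRNA miR-7 in β-cells, so the glia themselves are not the cells targeted. The study's methods describe each library as islets pooled from several mice, and the labels give enzyme digestion and a density gradient for their isolation. A library is therefore a pool, the p values measure the spread between these 12 libraries, and nerve or glial tissue kept on the islets at isolation was not measured.

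Glial cells of the neural crest lineage depend on the transcription factor Sox10 throughout their life, and Foxd3 acts earlier, in neural crest cells and their glial precursors. Erbb3 is the receptor by which Schwann cells sense axonal neuregulin, and because its own kinase is weak it signals with Erbb2. Ngfr encodes the low-affinity neurotrophin receptor p75, which is abundant on immature, non-myelinating and injured Schwann cells. The calcium-binding protein S100b and the intermediate filament Gfap are the markers with which glia around islets are usually stained. None of the 6 is exclusive to Schwann cells: Erbb3 is also an epithelial gene, Sox10 and S100b are also found in the melanocyte lineage, S100b in fat cells, and Ngfr and Gfap in stellate cells.

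Total gene counts lay between 11610697 and 17515758 in the 12 libraries. Counts were scaled to depth and with TMM factors, which adjust for library composition, and are given as CPM. Of the 37991 genes, 15961 passed the filter on low counts and were tested with edgeR's quasi-likelihood test, with Benjamini-Hochberg adjustment over all of them and a threshold of 0.05 for a changed gene. The log2 fold changes below come from that fit, with their standard error (SE). The filter kept 5 of the 6 members, and Gfap failed it. In bulk RNA, fewer Schwann cells and less RNA per Schwann cell cannot be told apart.

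At 12w, Sox10 and Ngfr transcripts were more than 4-fold higher in Tg7 than in Wt islets, and both passed the test. S100b, Foxd3 and Gfap also had more counts in Tg7 islets, from 2 to 4 reads in all Wt libraries, and none of them passed. Erbb3, the most abundant member, did not follow: its levels in 12w Wt and Tg7 islets overlapped. At 2w no member passed the test. In Wt islets, Sox10 and Ngfr fell between 2w and 12w.

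**Figure D1:**
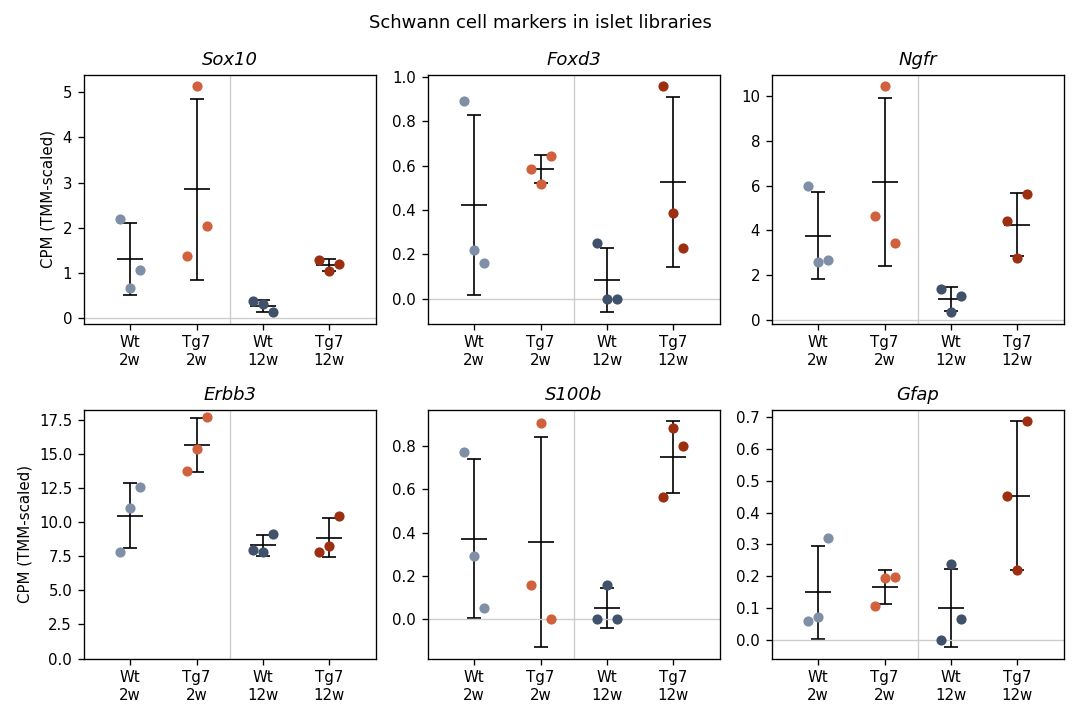
Expression of the 6 Schwann cell markers in every library, in CPM on the vertical axis, for Wt and Tg7 islets at 2w and 12w; points are libraries, and the bars show the mean and SD of 3 libraries. At 12w the Tg7 libraries lie above all Wt libraries for Sox10, Ngfr and S100b, while those of Erbb3, Foxd3 and Gfap overlap with Wt. The share of all genes that separate in this way was not measured.

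Sox10 (ENSMUSG00000033006) lies on the minus strand of mm9 at chr15:78985343-78994920 and has 2713 bp of exons. It had 3, 4 and 2 counts in the Wt libraries of 12w and 23, 19 and 21 in the Tg7 libraries of that age. Every Tg7 library was above every Wt library, and the Tg7 libraries lay close together, at 1.18 ± 0.124 CPM against 0.276 ± 0.127 CPM in Wt (SD, n = 3). The log2 fold change was 2.15 (SE 0.70, edgeR adjusted p = 0.0393). At 2w the counts were 37, 9 and 20 in Wt and 26, 79 and 41 in Tg7 islets. These groups overlapped, and the highest value, 5.13 CPM, came from Tg7 replicate 2 alone. The log2 fold change at 2w was 1.10 (SE 0.55, edgeR adjusted p = 0.22). The 12w call for Sox10 rested on every library: without any one of the 6 libraries of that age the adjusted p was between 0.0558 and 0.122, with log2 fold changes from 1.77 to 2.36.

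Foxd3 (ENSMUSG00000067261) is a single-exon gene on the plus strand at chr4:99322990-99325362, and an annotated miRNA gene on the same strand covers 89 bp of it. In 12w Wt islets 1 library held 2 counts and the others none, while the 12w Tg7 libraries held 17, 7 and 4. The lowest Tg7 library, at 0.229 CPM, lay just under the highest Wt library, at 0.252 CPM. Summed over libraries, 28 against 2 counts gave a ratio of 9.33 once divided by the summed library sizes times TMM factors, as for all such ratios here, with an exact 95% counting interval of 2.35 to 80.9 that covers counting error only. The fitted log2 fold change was 2.98 (SE 1.19), and it did not pass (edgeR adjusted p = 0.0862). Over the alternatives it lay between 2.22 and 6.15. The highest value came without Wt 12w replicate 1, where Foxd3 passed (edgeR adjusted p = 0.0311) and the remaining Wt libraries hold no read, so that its size depends on the prior count of the fit. It also passed with library size as the only scaling (3.37, adjusted p = 0.0309). At 2w, Foxd3 had 15, 3 and 3 counts in Wt and 11, 8 and 13 in Tg7 islets, so the Tg7 libraries were even and the Wt libraries were not (log2 fold change 0.45, SE 0.83, edgeR adjusted p = 0.776).

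Of the receptors, Ngfr (ENSMUSG00000000120, chr11:95430132-95449049, minus strand) showed the change with the strongest statistical support. The Wt libraries of 12w had 11, 4 and 16 counts, and the Tg7 libraries of that age had 78, 50 and 98. The groups did not overlap, at 0.924 ± 0.549 CPM in Wt and 4.26 ± 1.43 CPM in Tg7 islets (SD, n = 3). The log2 fold change was 2.24 (SE 0.58, edgeR adjusted p = 0.0127). Of the 6 libraries of that age, leaving out Tg7 replicate 3, the highest of them, took the adjusted p just past the threshold, to 0.0505, with a log2 fold change of 1.99. At 2w the counts were 101, 35 and 50 in Wt and 87, 161 and 69 in Tg7 islets. The groups overlapped (log2 fold change 0.71, SE 0.50, edgeR adjusted p = 0.391), and Tg7 replicate 2 was again the highest library, at 10.5 CPM.

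Erbb3 (ENSMUSG00000018166, chr10:128004579-128026708, minus strand) behaved differently. At 12w it was at 8.28 ± 0.740 CPM in Wt and 8.85 ± 1.42 CPM in Tg7 islets (SD, n = 3), with overlapping libraries, from 7.78 to 9.13 CPM and from 7.84 to 10.5 CPM. The log2 fold change was 0.09 (SE 0.21, edgeR adjusted p = 0.803). It was at 2w that its groups separated: the Wt libraries were at 7.83, 11.1 and 12.6 CPM and the Tg7 libraries at 13.8, 15.4 and 17.7 CPM. All Tg7 libraries were higher, but the log2 fold change of 0.58 (SE 0.20) did not pass after adjustment (edgeR adjusted p = 0.0836). With replicate number as a block, Erbb3 passed (log2 fold change 0.59, edgeR adjusted p = 0.0304). The replicate numbers are not known to pair the libraries.

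S100b (ENSMUSG00000033208) lies on the plus strand at chr10:75716598-75723904, within the span of Dip2a on the other strand, with no shared exon. At 12w the Wt libraries had 0, 2 and 0 counts, and the Tg7 libraries 10, 16 and 14. Every Tg7 library was higher, at 0.750 ± 0.167 CPM (SD, n = 3), and the scaled ratio of the summed counts was 13.3, with an exact 95% counting interval of 3.46 to 114. The fitted log2 fold change of 3.57 (SE 1.41) did not pass (edgeR adjusted p = 0.0845). It lay between 2.90 and 6.63 over the alternatives, the highest without Wt 12w replicate 2, where no Wt read is left and the gene did not pass either (adjusted p = 0.0757), and it passed with library size as the only scaling (3.95, adjusted p = 0.0349). At 2w there was no separation, with 13, 4 and 1 counts in Wt and 3, 14 and 0 in Tg7 islets, and the direction of its log2 fold change of -0.13 turned with the scaling and with single libraries left out. Outside the 12w Tg7 group, only the 2w libraries with 13 and 14 counts reached the level of the low-count filter, too few for S100b to pass it. S100b therefore entered the test only through the group where it is high, and its 12w values are a description and not support.

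Gfap (ENSMUSG00000020932, chr11:102748650-102762226, minus strand) was barely detected. At 12w it had 0, 3 and 1 counts in the Wt libraries and 8, 4 and 12 in the Tg7 libraries. Replicate 2 of Tg7, at 0.221 CPM, fell just under the highest Wt library, at 0.238 CPM. The scaled ratio of summed counts, 24 against 4, was 4.0 with an exact 95% counting interval of 1.37 to 15.9. Without the filter Gfap could be tested among 24010 genes and did not pass (log2 fold change 1.99, edgeR adjusted p = 0.376). At 2w it had 8 counts in all Wt and 9 in all Tg7 libraries.

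Set against all genes, 2 of the 5 tested members changed between Tg7 and Wt islets at 12w, where 23.6% of the 15961 genes did. At 2w none of the 5 passed, against 10.6% of all genes. Only Erbb3 had an unadjusted p under 0.05 at 2w (0.0135), and DESeq2 called no member there either. How often the libraries of 2 groups lie fully apart over all genes was not measured, so such separations of members are a description. The median log2 fold change of the tested members was 0.58 at 2w and 2.24 at 12w, beside 0.03 and -0.01 over all tested genes. The filter itself favours genes that are high in some group, so these medians say nothing of Gfap. S100b passed the filter only through the 12w Tg7 group, so its part in the 12w median is a description. The difference between the 12w and the 2w effect was not called for any member, against 1.18% of all genes. None had an unadjusted p under 0.05 for that difference, the smallest being those of S100b (0.0623) and Ngfr (0.064), and DESeq2, which gave no adjusted p for S100b and Foxd3 here, called none. A larger effect at 12w than at 2w was therefore not shown for any member.

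**Figure D2:**
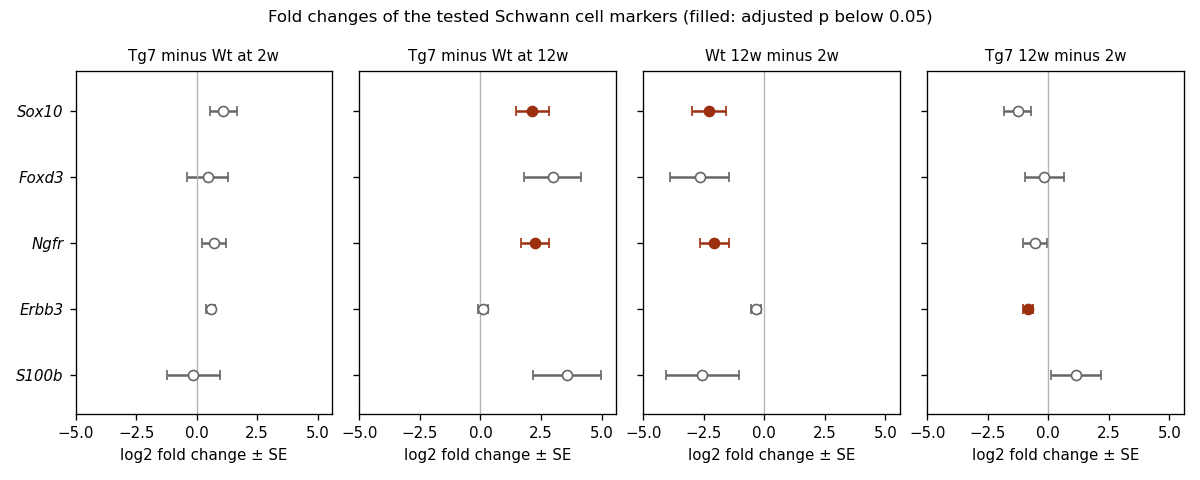
Log2 fold change with SE (horizontal axis) of the 5 tested markers in 4 comparisons; filled points passed an adjusted p of 0.05 in edgeR. Sox10 and Ngfr are filled on the right of 0 in Tg7 against Wt islets at 12w and on the left of 0 for 12w against 2w Wt islets, and Erbb3 is filled only for 12w against 2w Tg7 islets, at -0.82.

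The 12w Wt libraries were also compared with the 2w Wt libraries. Sox10 fell by 2.30 on the log2 scale between 2w and 12w (SE 0.70, edgeR adjusted p = 0.0388) and Ngfr fell by 2.06 (SE 0.58, adjusted p = 0.0277). For both genes every 12w Wt library was below every 2w Wt library. S100b and Foxd3 were also lower in sum at 12w, with 2 counts against 18 and 2 against 21, and did not pass (edgeR adjusted p = 0.264 and 0.151). Thus 2 of 5 tested members changed with age in Wt islets, both downwards, against 15.8% of all genes. Without Wt 2w replicate 1, the highest 2w Wt library for both genes, neither passed (edgeR adjusted p = 0.149 for Sox10 and 0.113 for Ngfr). The same loss of both calls followed when Wt 12w replicate 2 was left out (edgeR adjusted p = 0.0689 and 0.0838). Sox10 alone was also lost without Wt 2w replicate 3 (adjusted p = 0.0709), Wt 12w replicate 1 (0.0624) or Wt 12w replicate 4 (0.0905), and passed without Wt 2w replicate 2 (0.0409).

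In Tg7 islets neither gene passed with age. Sox10 had a log2 change of -1.25 (SE 0.56, edgeR adjusted p = 0.162) and Ngfr one of -0.53 (SE 0.49, adjusted p = 0.525). Erbb3 was the 1 member of 5 that changed with age in Tg7 islets, where 13% of all genes did: it fell by 0.82 on the log2 scale (SE 0.20, edgeR adjusted p = 0.0167), and every 12w library was below every 2w library. That call was lost without Tg7 2w replicate 3 (edgeR adjusted p = 0.0678), without Tg7 12w replicate 1 (0.0861) and without Tg7 12w replicate 2 (0.0767). The 12w Wt libraries enter both the Tg7 comparison and the Wt age comparison, so the 2 sets of calls for Sox10 and Ngfr share samples.

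Levels of different genes were compared per kilobase of exon (RPKM). Erbb3 was the highest member in each of the 4 groups and Gfap the lowest. In 2w Wt islets, the order was Erbb3 (1.74 ± 0.401 RPKM), Ngfr (1.09 ± 0.565), Sox10 (0.482 ± 0.293), S100b (0.251 ± 0.246), Foxd3 (0.178 ± 0.171) and Gfap (0.0357 ± 0.0346; SD, n = 3), and each neighbouring pair overlapped. In 12w Wt islets a gap opened under Erbb3: its libraries were at 1.29 to 1.52 RPKM, while those of Ngfr, the next, were at 0.0922 to 0.402. Sox10, S100b, Foxd3 and Gfap were all under 0.14 RPKM in that group and overlapped with their neighbours. In 12w Tg7 islets Ngfr, at 0.803 to 1.63 RPKM, overlapped with Erbb3 again, and S100b (0.505 ± 0.112 RPKM) stood beside Sox10 (0.436 ± 0.0456 RPKM; SD, n = 3). In 2w Tg7 islets Sox10 lay apart from the next member, Foxd3, with 0.511 RPKM in its lowest library against 0.272 RPKM in the highest of Foxd3.

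Within groups, Erbb3 also varied apart from the other members. After group means were removed, the 12 libraries gave a Pearson r between 0.10 and 0.63 for each pair among Sox10, S100b, Ngfr and Foxd3, and between -0.71 and -0.21 for each of these with Erbb3. These values are a description over libraries that share a depth and a scaling factor, and no p is given. The genes whose log2 CPM was most like that of a member over the 12 libraries, out of all 15961, were Adamts7 (0.95), Tgif1 (0.92) and Stab1 (0.92) for Sox10, and Adamts18 (0.95), Islr (0.93) and Cables1 (0.93) for Ngfr. For S100b they were Sema3f (0.93), Slc9a3r2 (0.92) and the neurofilament gene Nefl (0.92). Erbb3 was most like Fgfr2 (0.92), Acot1 (0.91) and Map3k15 (0.91), and Foxd3 most like Tmeff2 (0.90), Igsf10 (0.89) and Car11 (0.88). By deviations from the group means the nearest genes were Vamp4 (0.95) and Caly (0.95) for Sox10, Usp18 (0.97), 6530418L21Rik (0.97) and Adrbk1 (0.96) for S100b, and Pcdh15 (0.95) and Abcc9 (0.94) for Ngfr. For Erbb3 they were Gm853 (0.91), Senp1 (0.86) and Rnaset2b (0.85), and for Foxd3 C1qtnf7 (0.94), Nme5 (0.93) and Ociad1 (0.92). No gene was among the nearest by both measures.

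Since the transgene raises miR-7, the 3′ UTRs of the members were searched for matches to its seed, the bases by which a microRNA pairs with a transcript. The mature sequences, from RefSeq on GRCm38.p6, are shown because both forms of mouse miR-7 share that seed, given in capitals (bases 2 to 8).
mmu-miR-7a-5p: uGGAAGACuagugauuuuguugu
mmu-miR-7b-5p: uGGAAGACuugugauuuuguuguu
A match was either GTCTTCC, which pairs with all 7 seed bases, or TCTTCCA, which pairs with 6 of them and is followed by an A. These overlap in 6 letters, and only the transcript strand was searched, in the longest annotated 3′ UTR of each gene. Such a match was found in 4 of the 6 members, while 24.9% of the 14406 tested genes with a 3′ UTR held one, at a median length of 1151 nt. The UTRs of the members were 637 to 1985 nt long. Both receptors carried the full seed match. The sites are shown with 8 bases on either side and the match in capitals, 5′ to 3′ on the transcript strand, with mm9 positions.
Ngfr (chr11:95430964-95430986, minus strand): gtggggctGTCTTCCtcacctcc
Erbb3 (chr10:128004667-128004689, minus strand): aacctcaaGTCTTCCtggatggg
S100b (chr10:75723377-75723399, plus strand): aagtctctTCTTCCAcagtgtgc
Foxd3 (chr4:99324766-99324788, plus strand): cagcctgcTCTTCCAggcggtac
Neither form was found in the UTRs of Sox10 (1378 nt) and Gfap (1341 nt). A match of letters is not a binding site. Of the 4 genes that hold one, none passed as lower in Tg7 islets at 12w, and Ngfr, with the full seed match, rose. S100b and Foxd3 had 2 counts each in all 12w Wt libraries, so a fall could hardly have been called for them. The transgene acts in β-cells, and an effect of miR-7 on the member transcripts was not tested.

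Other glial genes were taken by kind, and the difference between these lists was not tested. The counts of called genes in this and the following lists stand beside 23.6% of all tested genes at 12w and 10.6% at 2w. Of 12 genes of immature and non-myelinating Schwann cells, 9 were tested, and 6 of these rose in 12w Tg7 islets while none fell, with a median log2 fold change of 0.86. Scn7a, a sodium channel of non-myelinating Schwann cells, had the largest change: it was between 0.556 and 1.07 CPM in 12w Wt libraries and between 9.81 and 13.5 CPM in 12w Tg7 libraries (log2 fold change 3.85, SE 0.49, edgeR adjusted p = 8.95e-05). Cdh19, a cadherin of Schwann cell precursors, rose by 2.65 (SE 0.88, adjusted p = 0.0418) on the log2 scale from 8 counts in all Wt libraries. Its call was lost in 7 of 12 alternatives (adjusted p up to 0.217), among them the fits with Wt 12w replicate 1, 2 or 4 or Tg7 12w replicate 1 or 3 left out. The others that rose were the adhesion molecules Ncam1 (0.69, SE 0.11) and L1cam (0.97, SE 0.20), the matrix protein gene Matn2 (0.86, SE 0.22) and the phosphatase gene Ptprz1 (0.63, SE 0.21); Ncam1 and L1cam are also neuronal, and endocrine cells express Ncam1. Matn2 was lost without Tg7 12w replicate 3 (adjusted p = 0.0583), and Ptprz1 without Wt 12w replicate 2 or any of the Tg7 12w replicates (up to 0.129). At 2w, edgeR called none of the 9, with a median of 0.29; 2 had an unadjusted p under 0.05, and DESeq2 called 1.

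Of 14 myelin genes, 9 were tested at 12w, with 1 up, 1 down and a median log2 fold change of 0.05. Egr2, a transcription factor of myelination that many cell types also induce on stimulation, rose by 2.47 (SE 0.40, edgeR adjusted p = 0.000533). Mbp, which encodes a myelin basic protein with isoforms outside glia, fell by 0.62 on the log2 scale (SE 0.14, adjusted p = 0.00486) and did not pass with library size as the only scaling (log2 fold change -0.18). Mag, Pou3f1, Gldn, Pmp2 and Dhh failed the filter. Among genes of injured and repair Schwann cells, 2 of 4 tested rose at 12w: the neurotrophic factor Gdnf (3.92, SE 0.71, adjusted p = 0.0014) and the cytokine Lif (2.29, SE 0.39, adjusted p = 0.000795). Gdnf had 8 counts in all 12w Wt libraries and 180 in all 12w Tg7 libraries. Lif had already risen at 2w (1.65, SE 0.34, adjusted p = 0.00736). Jun, the regulator of the repair state, was at 0.01 (SE 0.19) at 12w.

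**Figure D3:**
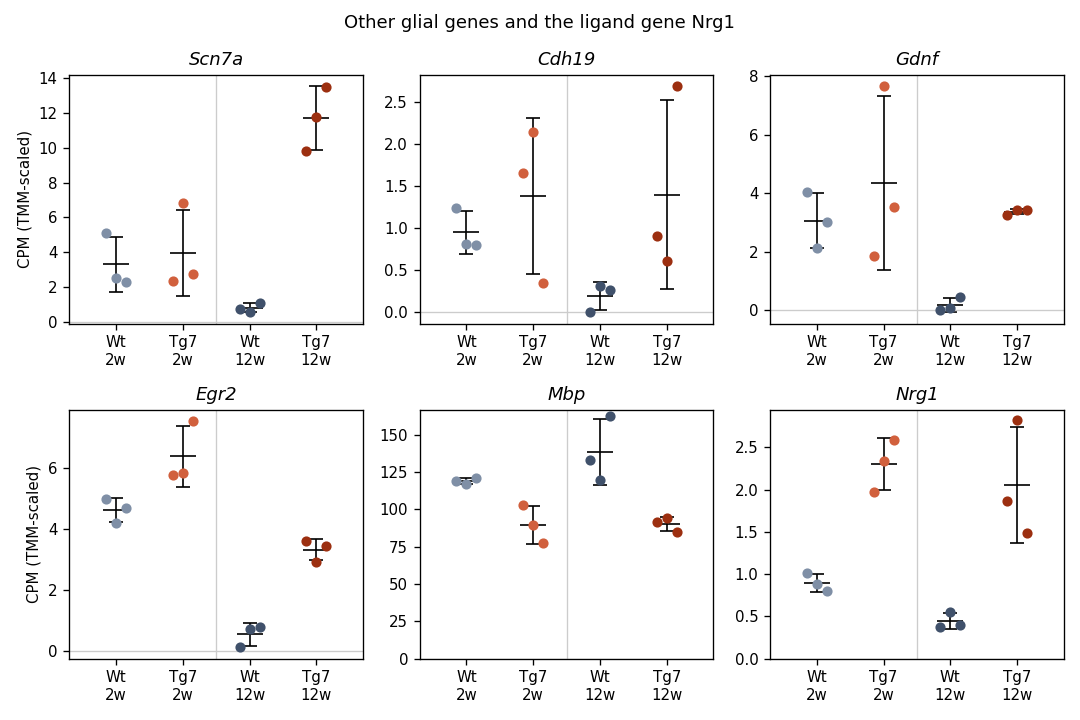
CPM (vertical axis) of 6 other genes in every library, by genotype and age; points are libraries, bars the mean and SD of 3 libraries. Scn7a, Cdh19, Gdnf and Egr2 are higher in all 12w Tg7 libraries than in any 12w Wt library, Mbp is lower in the 12w Tg7 libraries, and the ligand gene Nrg1 is higher in Tg7 islets at both ages.

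Nrg1, the neuregulin that acts through Erbb3, was higher in Tg7 islets. It was at 0.798 to 1.01 CPM in 2w Wt and 1.97 to 2.58 CPM in 2w Tg7 libraries (log2 fold change 1.35, SE 0.40, edgeR adjusted p = 0.0438), and at 0.378 to 0.556 and 1.49 to 2.82 CPM at 12w (2.18, SE 0.44, adjusted p = 0.00293). No library overlapped between genotypes at either age. Nrg3, a neuregulin that binds Erbb4, had 13 and 2 counts in Wt and Tg7 islets at 2w and 1 and 116 counts at 12w. The scaled ratio of summed counts at 12w was 77.3, with an exact 95% counting interval of 13.6 to 3080. Erbb2, the partner of Erbb3 and named for that reason, passed at neither age: its log2 fold change was 0.87 at 2w (SE 0.28, adjusted p = 0.0592), and the 12w value was 0.59 (SE 0.30, adjusted p = 0.179). Erbb4 rose at 2w (3.68, SE 0.93, adjusted p = 0.0233) from 4 counts in all Wt libraries, a call that no fit with a Wt 2w library or Tg7 2w replicate 3 left out kept (adjusted p up to 0.13). Lrig1, a negative regulator of these receptors, rose at both ages (0.76, SE 0.17, and 1.10, SE 0.17), though its 2w value no longer passed with Wt 2w replicate 1 or 3 left out (adjusted p = 0.0636 and 0.0572), and Egfr fell by 0.88 at 12w (SE 0.17). Over all 15 genes of the ErbB family list, 3 rose and none fell at 2w (median 0.87), and 3 rose and 2 fell at 12w (median 0.22). The 3 that rose at 12w include Nrg3, which passed the low-count filter only through the 12w Tg7 group, where it is high.

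On the neurotrophin side, Bdnf, a ligand of the p75 receptor, rose by 0.93 at 2w (SE 0.26) and 1.05 at 12w (SE 0.26) on the log2 scale. The 2w calls were weak: leaving out any one Wt 2w library, or Tg7 2w replicate 2 or 3, took Bdnf and Nrg1 past the threshold (edgeR adjusted p up to 0.118 and 0.166), and Nrg1 was also lost without Tg7 2w replicate 1 (0.0528). Of the co-receptors, Sorcs2, which forms a receptor complex with p75, went from 10.7 to 14.3 CPM in 12w Wt to 130 to 156 CPM in 12w Tg7 libraries (3.55, SE 0.18, adjusted p = 5.42e-08). The Bdnf receptor gene Ntrk2 rose by 0.86 at 12w (SE 0.17) and Sort1, which binds pro-neurotrophins together with p75, fell by 0.92 (SE 0.21). Lingo1, a p75 co-receptor gene, fell at 2w by 0.70 (SE 0.15). With library size as the only scaling, which moved the median of all genes to 0.19 at 2w and 0.43 at 12w, Lingo1 at 2w and Egfr and Sort1 at 12w kept their sign and did not pass. Of 10 tested genes in this list, 2 rose and 1 fell at 2w (median -0.08), and 4 rose and 1 fell at 12w (median 0.62).

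Relatives of the other members gave mixed pictures. Among neural crest and SoxE transcription factors, 3 of 9 tested genes rose at 12w and none fell (median 0.92), where 23.6% of all tested genes were called. Among them were Ets1 (1.17, SE 0.19) and Sox5 (1.12, SE 0.27), neither exclusive to glia. Sox9, a relative of Sox10 and a duct cell gene, did not pass (0.90, SE 0.43, edgeR adjusted p = 0.15), and Pax3 and Zic1 had no count in any library. At 2w, 1 of the 9 rose and none fell (median 0.48). Of the S100 genes, 1 of 12 tested rose at 12w (S100a13, 0.71, SE 0.24), a call that did not hold with Wt 12w replicate 4 or any Tg7 12w replicate left out (edgeR adjusted p up to 0.131). At 2w edgeR called none of them, 5 had an unadjusted p under 0.05 and DESeq2 called 2. The intermediate filament genes of the classes to which Gfap and the neurofilaments belong rose in 7 of 10 cases at 12w (median 1.24), among them Vim (1.62, SE 0.24) and the peripheral nerve gene Prph (2.85, SE 0.66), and 2 of 10 rose at 2w. The 3 other Foxd genes searched all failed the filter.

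**Figure D4:**
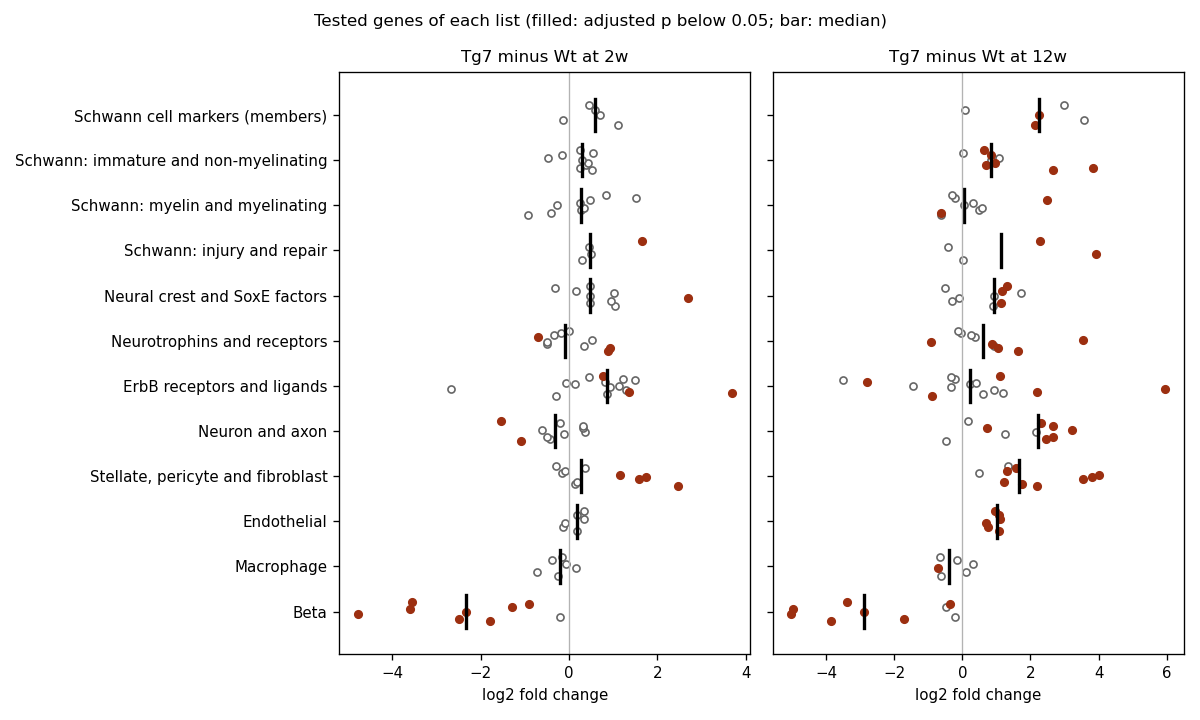
Log2 fold change (horizontal axis) of each tested gene in 12 lists for Tg7 against Wt islets at 2w (left) and 12w (right); filled points passed an adjusted p of 0.05 in edgeR and black bars are list medians. At 12w the medians of the members, neuron and axon, stellate and endothelial lists lie to the right of 0 (2.24, 2.23, 1.65 and 1.02), that of the myelin list lies at 0.05, and that of the β-cell list at -2.88.

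The rise of Sox10 and Ngfr at 12w did not stand alone in these islets. All 6 endothelial genes rose (median 1.02), as did 8 of 10 stellate, pericyte and fibroblast genes (median 1.65) and 6 of 10 tested neuron and axon genes (median 2.23), while 7 of 9 β-cell genes fell (median -2.88). Summed CPM in 12w Wt and 12w Tg7 libraries were 285 to 382 and 621 to 679 for the endothelial list, 78.7 to 141 and 264 to 292 for the stellate list, and 102 to 121 and 195 to 257 for the neuron list. Bulk RNA does not show which cells the transcripts of these lists came from. Macrophage genes did not rise, with 0 of 6 up and 1 down. In Wt islets all 6 endothelial genes and 6 of 10 stellate genes also fell between 2w and 12w, in the same comparison as Sox10 and Ngfr. At 2w, no endothelial gene passed in edgeR or DESeq2, 1 of them had an unadjusted p under 0.05, and 2 of 10 neuron genes fell, while 4 of 10 stellate genes rose (median 0.27) and 8 of 9 β-cell genes fell (median -2.32). Of the other cell types that can express Sox10 or S100b, the melanocyte gene Tyrp1 had no count in any library and Mlana had, at 12w, none in Wt and 1 in Tg7 islets, while Dct rose at 12w (1.87, SE 0.28) and Tyr, which failed the filter, had 6 counts in Wt and 29 in Tg7 islets. The summed level of the melanocyte list was 2.62 to 3.40 CPM in 12w Wt and 9.52 to 11.8 CPM in 12w Tg7 libraries, without overlap. In the fat cell list, Lep had 2 counts and Plin1 7 in all 12w Tg7 libraries, whereas Fabp4, also an endothelial gene, rose (1.10, SE 0.37, edgeR adjusted p = 0.0463) from 146 to 503 counts. Cfd, the other of the 2 tested genes of that list, was lower in 12w Tg7 islets and did not pass (list median 0.41). The summed level of that list was 3.60 to 8.57 CPM in 12w Wt and 10.3 to 10.6 CPM in 12w Tg7 libraries. In its single-cell data from 12w mice, the paper saw no significant shift in the share of stellate cells in Tg7 islets. The paper also concludes that genes of epithelial-mesenchymal transition were induced in dedifferentiated β-cells. The part that a change in the cell makeup of the islet pools has in the member values was not tested.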

How the data were processed

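The data were raw gene counts of 12 islet libraries, used from the matrix as deposited. According to the methods and labels, the authors trimmed reads with Trimmomatic, aligned them to mm9 with TopHat2 2.0.11 and counted them with featureCounts, with a version and strandedness not given in the sources used here. Antisense reads therefore cannot be told apart where genes overlap. The low-count filter was filterByExpr, with a minimum count of 10 and a minimum total of 15. Counts were fitted in edgeR 4.0.16 (R 4.3.3) as 4 group means with TMM factors and no block, and the SE is the log2 fold change over the square root of F. The members and gene lists were chosen with earlier results of these data known. Beyond the 6 members, up to 5 genes per list were named, those with the smallest p in Tg7 against Wt at either age. Bdnf, Erbb2, Ptprz1 and the genes given as absent or near 0 were named beyond that rule, after their values were seen. Some genes that the rules name are not reported here. Annotation was GENCODE vM1 on mm9. The fit was checked on simulated counts with changes planted in the 12w Tg7 group. It recovered 58% of 2-fold and 92% of 4-fold changes, with 7 false calls, and smaller changes were not planted. Alternatives were upper-quartile factors, library size alone, DESeq2 1.42.0, a filter of 50 counts in 3 libraries, no filter, a replicate block, separate fits per age and leaving out each library.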

Additional observations from a re-analysis of the deposited data

Results flagged for a closer look

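No member passed the test of the difference between the 12w and the 2w effect of Tg7, but several of their companion genes did, each with a larger log2 fold change at 12w (edgeR's quasi-likelihood test of the difference, Benjamini-Hochberg adjustment over 15961 genes). For Scn7a the difference was 3.60 on the log2 scale (SE 0.64, adjusted p = 0.0145), with log2 fold changes of 0.25 at 2w and 3.85 at 12w. For Nrg3 the fitted difference was 8.61 (adjusted p = 0.0104), a value that rests on 2 counts in 2w Tg7 and 1 in 12w Wt islets. With 13 counts in all 2w Wt libraries, Nrg3 passed the low-count filter only through the 12w Tg7 group, where it is high. Its passing is therefore a description and not support. For Sorcs2 it was 3.03 (SE 0.24, adjusted p = 3.77e-05), with all 12w Tg7 libraries between 130 and 156 CPM. For the neurotrophin receptor gene Ntrk2 it was 1.35 (SE 0.24, adjusted p = 0.0153), from -0.49 at 2w to 0.86 at 12w. For Lingo1 it was 1.08 (SE 0.22, adjusted p = 0.0342), from a fall of Lingo1 at 2w to a log2 fold change of 0.38 at 12w that did not pass (adjusted p = 0.112). With single libraries left out, the differences of Scn7a, Nrg3, Sorcs2 and Ntrk2 passed in every fit, and that of Lingo1 did not, with an adjusted p of up to 0.108.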

How the results depend on the processing

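The count of members called at 12w (2) became 4 with library size alone, where S100b (log2 fold change 3.95, edgeR adjusted p = 0.0349) and Foxd3 (3.37, 0.0309) also passed, and 1 with the stricter filter, which left only 2 members to test. S100b entered the test only through the 12w Tg7 group, so its call there is a description and not support. The count of members called at 12w ranged from 0 to 2 with single libraries left out. The count with age in Wt islets (2) became 1 with the stricter filter and ranged from 0 to 2 with libraries left out, and the count with age in Tg7 islets (1) ranged from 0 to 1. Library numbers were not treated as pairs, since same-numbered Tg7 and Wt libraries deviated from their group means with r of -0.02, -0.17 and -0.03 at 2w and -0.09 and -0.01 at 12w. With the replicate block the counts were 1 at 2w (Erbb3), 1 at 12w, where Sox10 no longer passed (1.89, edgeR adjusted p = 0.14), and 1 with age in Wt islets. Some estimates that passed in no fit changed sign: S100b at 2w was 0.033 with library size alone, 1.03 without Wt 2w replicate 1, 0.22 without Tg7 2w replicate 1 and 0.48 without Tg7 2w replicate 3 (range -2.15 to 1.03 over libraries left out). Erbb3 at 12w was -0.045 without Tg7 12w replicate 3 (range -0.045 to 0.19). With age in Tg7 islets, Ngfr was 0.079 without Tg7 2w replicate 2 (range -0.81 to 0.079), and Foxd3 was 0.024 and 0.20 without Tg7 12w replicates 2 and 3 (range -0.91 to 0.20). DESeq2 on all libraries kept both 12w calls (adjusted p = 0.0217 for Sox10 and 0.000682 for Ngfr). The depth left S100b and Foxd3 with 2 counts each in all 12w Wt libraries, which limits how precisely their change can be given.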
